A study of Rattus norvegicus with 196 samples.

Results

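Transcript levels were compared between the Sham libraries labelled BLA and the Sham libraries labelled CMA, which are 8 of the 196 bulk RNA-seq libraries, from 25 regions, used here from a survey of the rat brain under chronic fluoxetine. The members were chosen by their region and treatment labels alone, 4 libraries for each region, numbered as replicates 1, 3, 4 and 5, and each BLA-labelled library was paired with the CMA-labelled library of the same number. Per the methods of the study, BLA stands for the basolateral amygdala and CMA for the central medial amygdala. The study itself asked how fluoxetine changes expression in each region, and the Sham libraries are its controls.

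All animals were male Long-Evans rats with no genetic change, 2 months old when the treatment began. Sham animals drank water for 6 weeks, while the fluoxetine animals, termed FT, received 18 mg/kg of body weight of the drug per day over the same time. Each library was made from micropunches of 1 region pooled over 10 animals, so that the spread between libraries is that between pools and not between animals. The punches take every cell within their reach, and fewer cells of a type cannot be told apart from less RNA per cell in such tissue. The labels record that the raw reads of BLA replicate 1 were corrupted, and its counts were used as deposited.

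The amygdala joins parts of different origin. The basolateral complex belongs to the pallium, as the cortex does, and is built mostly of glutamatergic principal neurons that receive cortical and thalamic input and learn the emotional value of stimuli. The central nucleus belongs to the subpallium and resembles the striatum in that its neurons are mainly GABAergic, many of them peptidergic, while the medial nucleus mixes GABAergic and glutamatergic neurons, vasopressin cells among them. A pallial sample is therefore known for transcripts of glutamate release, and a subpallial sample for GABA synthesis, dopamine signalling and enkephalin.

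Markers of striatal-type neurons, and in part those listed for pallial glutamatergic neurons, went against the region labels. The few named markers of the central and medial amygdala were divided. All 6 named transcripts of striatal-type GABAergic neurons were higher in the libraries labelled BLA, and 4 of 5 named transcripts of glutamatergic neurons were higher in the libraries labelled CMA. Among the latter, Slc17a6 and Neurod1 were also higher in several regions outside the pallium. Slc17a6 in the cortical regions was near its level in the libraries labelled BLA, so neither gene by itself tells a pallial sample apart. Of the central amygdala list, Penk and Calcrl were higher in the libraries labelled BLA, Cartpt was higher in those labelled CMA and Sst was not called, and of the medial amygdala list Gal was higher in the former and Avp in the latter. For this reason the groups are called BLA-labelled and CMA-labelled throughout, and every direction below is that of the labels. Values are read counts per 1000000 (CPM) after TMM scaling, listed in the order of replicates 1, 3, 4 and 5. A log2FC is the BLA-labelled level minus the CMA-labelled level on the log2 scale, from edgeR's quasi-likelihood test with the replicate number as a block, with its standard error (SE) and its Benjamini-Hochberg adjusted p over all transcripts tested. The files list transcripts without gene names, and the names used here came from a table of the study of transcripts picked for a response to fluoxetine. Many defining genes are not named there, among them Slc17a7, Neurod6, Tbr1, Rspo2, Gad1, Slc32a1, Drd1, Prkcd, Crh and Tac1. Transcripts of these genes were not identified here, and any that passed the low-count filter were tested without a name. The named members of the marker lists are thus a subset set by that table.

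Drd2 encodes the dopamine D2 receptor of striatopallidal neurons. Its transcript ENSRNOT00000045944 stood at 78.5, 54.2, 52.98 and 46.1 CPM in the BLA-labelled libraries and 5.19, 3.33, 3.42 and 1.92 CPM in the CMA-labelled libraries (log2FC 4.12, SE 0.16, adjusted p = 7.26e-07). The groups did not overlap, and the difference corresponded to 17.4-fold. Penk, which encodes the precursor of the enkephalins, stood at 1859, 2396, 699 and 1698 CPM in the BLA-labelled libraries and 249, 195, 154 and 163 CPM in the CMA-labelled libraries (log2FC 3.02, SE 0.22, adjusted p = 3.04e-05). Gad2, an enzyme that makes GABA, measured 92.7, 124, 96.4 and 121 CPM in the BLA-labelled libraries and 30.3, 47.3, 46.2 and 41.2 CPM in the CMA-labelled libraries (log2FC 1.4, SE 0.13, adjusted p = 0.000114). Neither transcript overlapped between the groups.

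In the opposite direction, Slc17a6 (ENSRNOT00000022383), which encodes the vesicular glutamate transporter VGLUT2, stood at 16.3, 8.26, 21.7 and 11.6 CPM in the BLA-labelled libraries and 56.6, 36.6, 101 and 62.4 CPM in the CMA-labelled libraries (log2FC -2.15, SE 0.14, adjusted p = 1.33e-05). Neurod1, a transcription factor of glutamatergic neurons, measured 3.67, 4.31, 2.31 and 3.13 CPM in the BLA-labelled libraries and 17.7, 28.6, 7.61 and 24 CPM in the CMA-labelled libraries (log2FC -2.4, SE 0.21, adjusted p = 0.000105). Both were without overlap between the groups. Slc30a3, which loads zinc into glutamatergic vesicles, measured 56.6, 75.4, 13.6 and 25.7 CPM in the BLA-labelled libraries and 177, 309, 26.01 and 55.2 CPM in the CMA-labelled libraries (log2FC -1.43, SE 0.17, adjusted p = 0.000711). Its groups overlapped, with wide differences between replicates, and the CMA-labelled library was the higher in 4 of 4 pairs.

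**Figure D1:**
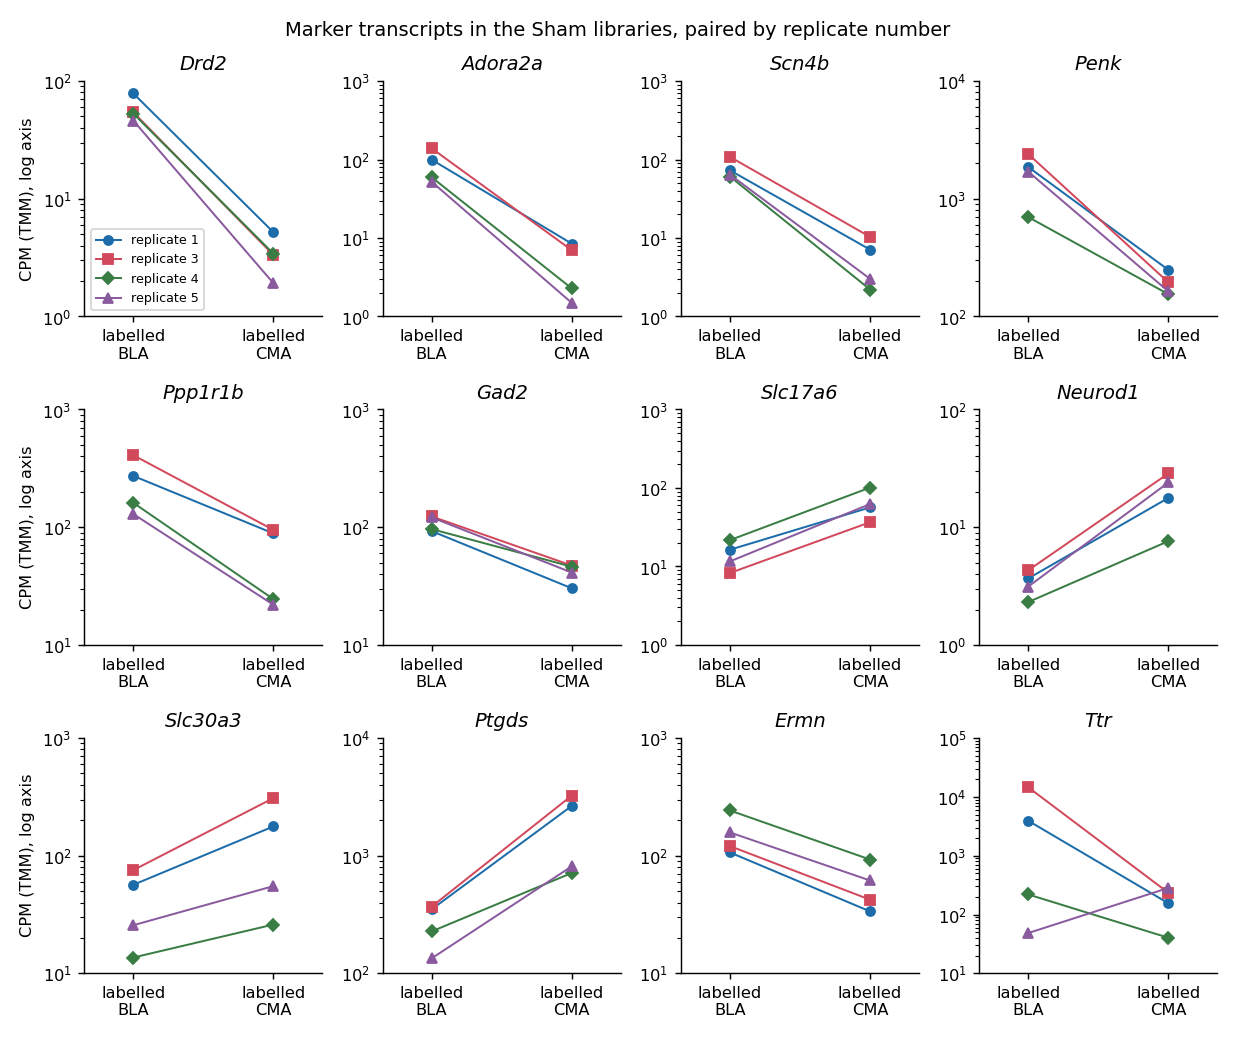
CPM of 12 transcripts (log axes) in the 8 Sham libraries, with a line joining the BLA-labelled and the CMA-labelled library of each replicate number. Drd2, Adora2a, Scn4b, Penk, Ppp1r1b, Gad2 and Ermn fall from left to right in 4 of 4 pairs, Slc17a6, Neurod1, Slc30a3 and Ptgds climb in 4 of 4, and Ttr falls in 3 of 4.

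The promoters of 4 of these genes are shown because their transcripts carry the contrast in opposite directions, Drd2 and Scn4b (a sodium channel subunit of striatal neurons, described below) being higher in the BLA-labelled libraries and Slc17a6 and Neurod1 in the CMA-labelled libraries. Each is the 250 bases before the start of the gene in RefSeq on the build GRCr8, read 5′ to 3′ along the strand of the gene. Capitals mark 3 motifs searched on both strands, the GC box GGGCGG, the E-box CAGCTG and the CRE half-site TGACG.
Drd2: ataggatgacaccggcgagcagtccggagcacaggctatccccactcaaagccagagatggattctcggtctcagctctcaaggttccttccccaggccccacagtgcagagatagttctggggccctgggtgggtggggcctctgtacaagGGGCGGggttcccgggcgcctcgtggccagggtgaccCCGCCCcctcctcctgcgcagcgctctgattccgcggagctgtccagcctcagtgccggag
Scn4b: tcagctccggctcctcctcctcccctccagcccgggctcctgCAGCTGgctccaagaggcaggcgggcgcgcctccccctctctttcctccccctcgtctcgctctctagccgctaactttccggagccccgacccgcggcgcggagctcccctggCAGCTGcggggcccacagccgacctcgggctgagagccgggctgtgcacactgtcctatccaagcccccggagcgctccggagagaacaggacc
Slc17a6: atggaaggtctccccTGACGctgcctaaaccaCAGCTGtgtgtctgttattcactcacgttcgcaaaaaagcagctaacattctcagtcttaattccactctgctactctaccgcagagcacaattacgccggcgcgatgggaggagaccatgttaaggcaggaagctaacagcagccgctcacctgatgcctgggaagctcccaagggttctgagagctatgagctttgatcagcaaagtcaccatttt
Neurod1: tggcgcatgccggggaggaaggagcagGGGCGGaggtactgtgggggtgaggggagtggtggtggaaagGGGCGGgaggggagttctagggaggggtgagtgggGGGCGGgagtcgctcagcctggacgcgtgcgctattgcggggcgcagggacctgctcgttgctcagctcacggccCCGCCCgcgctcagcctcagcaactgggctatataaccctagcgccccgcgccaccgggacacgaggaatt
These windows lie at chr8:58605153-58605402 (plus strand) for Drd2, chr8:54343623-54343872 (plus strand) for Scn4b, chr1:110348197-110348446 (plus strand) for Slc17a6 and chr3:84770455-84770704 (minus strand) for Neurod1. The Drd2 window held 2 GC boxes and the Neurod1 window 4, so that the GC box occurred on both sides of the contrast. The Scn4b window held 2 E-boxes, and the Slc17a6 window held 1 E-box and 1 CRE half-site. Among all 33469 promoter windows of this length, 30.5% held a GC box, 11.97% an E-box and 18.2% a CRE half-site. A match to these letters is a description of the sequence and not of binding. Penk, Adora2a and Ppp1r1b were not matched in this table.

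Across all transcripts, 965 were higher in the BLA-labelled libraries and 843 in the CMA-labelled libraries, of 13768 tested, at a level at least 25% higher than in the other group and an adjusted p of no more than 0.1. These are 7.01% and 6.12% of the transcripts tested, or 13.1% in all, and such transcripts are termed called. Of the calls, 1673 had the same sign in 4 of 4 pairs, a property of 4282 of the transcripts tested, and the groups of 411 of those tested (2.99%) did not overlap. At least 2-fold differences were called for 330 transcripts higher in the BLA-labelled and 232 higher in the CMA-labelled libraries, and 4-fold differences for 37 and 46. The median log2FC of all transcripts was 0.02. The larger number on the BLA-labelled side, 53.4% of the calls, was not kept under other scalings or tests, being 49.5% with median-ratio factors, 47.0% with the 50 most abundant transcripts left out of library sizes and 45.3% with DESeq2. Among the 1831 named transcripts tested, 301 were called, or 16.4%, with 148 (8.08%) higher in the BLA-labelled and 153 (8.36%) in the CMA-labelled libraries, and the other 1507 calls carry no name. These shares of the named transcripts are the background to the counts of every Sham list below.

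The calls rest on the pairing. Without the replicate block, 17 transcripts were called, Drd2 (adjusted p = 0.00714), Penk, Scn4b, Tnni3 and Adora2a among them, while the median log2FC of the striatal-type list described below went from 3.51 to 3.38. The count also depended on single pairs, since 857 transcripts were called without replicate 4. Total counts ranged from 6506385 to 22260055 per library, and the precision of transcripts with a few reads is limited by counting alone. Both libraries of replicate 3 stood apart. They held the fewest counts, and their 50 most abundant transcripts took 67.8% and 73.1% of them, against 25.9% to 34.5% in the other 6 libraries. Without replicate 3, 1228 transcripts were called.

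**Figure D2:**
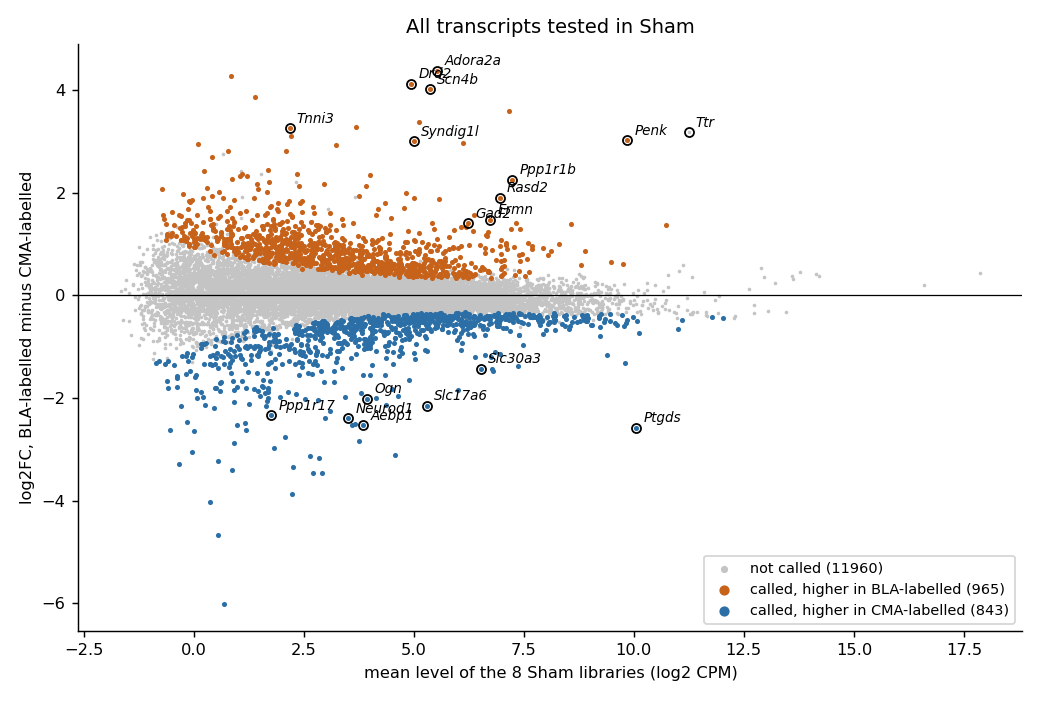
log2FC (BLA-labelled minus CMA-labelled, Sham) of the 13768 transcripts tested against the log2 of their mean CPM over the 8 libraries, with 965 orange and 843 blue points called higher in either group. Adora2a, Drd2 and Scn4b lie above 4 at intermediate levels, Penk lies near 3 at a high level, and Ptgds is the named transcript farthest below 0.

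Striatal-type projection neurons are medium spiny cells that combine GABA with dopamine, adenosine and cAMP signalling. Of the 20 genes listed for them, 6 had a named transcript, and 6 of these 6 were called higher in the BLA-labelled libraries, with a median log2FC of 3.51. Adora2a, the adenosine receptor that is paired with the D2 receptor in striatopallidal neurons, stood at 99.6, 139, 59.5 and 52.1 CPM in the BLA-labelled libraries and 8.47, 6.99, 2.28 and 1.49 CPM in the CMA-labelled libraries (log2FC 4.38, SE 0.23, adjusted p = 3.63e-06). Scn4b, the sodium channel beta4 subunit, measured 72.9, 108, 60.7 and 64.2 CPM against 7.11, 10.3, 2.21 and 3.02 CPM (log2FC 4.02, SE 0.24, adjusted p = 7.98e-06). For both, the lowest BLA-labelled library lay several times above the highest CMA-labelled library.

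Ppp1r1b encodes DARPP-32, the inhibitor of protein phosphatase 1 that relays dopamine signals, and stood at 273, 409, 161 and 129 CPM against 88.6, 94.9, 24.5 and 21.9 CPM (log2FC 2.25, SE 0.18, adjusted p = 5.26e-05). Rasd2 (Rhes), a small G protein of striatal neurons, measured 243, 245, 149 and 145 CPM against 74.3, 61.9, 37.9 and 37.5 CPM (log2FC 1.9, SE 0.12, adjusted p = 1.05e-05). Syndig1l, a membrane protein rich in the striatum, measured 89.5, 63.5, 35.9 and 37.4 CPM against 14.2, 6.33, 3.84 and 4.69 CPM (log2FC 3.0, SE 0.15, adjusted p = 2.54e-06). The groups did not overlap for any of these transcripts, and the 6 members summed to 474 to 1019 CPM in the BLA-labelled and 70.6 to 198 CPM in the CMA-labelled libraries. The count of 6 was the same with each replicate left out, with DESeq2 and with all Sham regions in one fit, and was 3 without the block.

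Transcripts listed for glutamatergic neurons of the pallium were mostly lower in the BLA-labelled libraries. Of 20 genes listed, 5 had a named transcript, of which 4 were called higher in the CMA-labelled libraries, with a median log2FC of -1.43 over the 5. Besides Neurod1, Slc17a6 and Slc30a3, this held for Nrgn, or neurogranin, a calmodulin-binding protein of principal neurons, at 333, 1306, 48.6 and 156 CPM against 687, 2000.0, 75.5 and 171 CPM (log2FC -0.61, SE 0.15, adjusted p = 0.0341). The Nrgn call was absent without replicate 3 and without replicate 4. Slc17a6 did not mark the cortical regions of this survey, as its levels by region given below show. The remaining member, Camk2a, a kinase of excitatory synapses named after its value was seen, was not called (log2FC 0.38, SE 0.17, adjusted p = 0.21).

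Of 16 genes of the central amygdala, 4 had a named transcript, and they did not move together. Penk and Calcrl, the receptor component for CGRP and adrenomedullin, were called higher in the BLA-labelled libraries, Calcrl at 1.42, 3.95, 9.31 and 11.4 CPM against 0.371, 1.33, 5.09 and 4.58 CPM (log2FC 1.23, SE 0.22, adjusted p = 0.00647). Cartpt, which encodes the CART peptides, was called higher in the CMA-labelled libraries at 16.1, 66.1, 6.16 and 13.9 CPM against 34.99, 143, 9.86 and 18.9 CPM (log2FC -0.84, SE 0.15, adjusted p = 0.00566). Sst, the precursor of somatostatin, stood at 155, 718, 19.3 and 83.9 CPM against 171, 821, 15.8 and 44.7 CPM and was not called (log2FC 0.21, SE 0.18, adjusted p = 0.531). Its levels ranged far more between replicates than between the labels.

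The medial amygdala list of 16 genes had 2 named transcripts, called in opposite directions. Gal, the precursor of galanin, stood at 9.64, 5.39, 5.17 and 11.3 CPM against 3.895, 2.33, 2.31 and 3.19 CPM (log2FC 1.42, SE 0.20, adjusted p = 0.00161), without overlap. Avp, the precursor of vasopressin, measured 0.459, 10.4, 0.0492 and 0.0847 CPM against 1.92, 49.3, 0.356 and 1.06 CPM (log2FC -2.38, SE 0.29, adjusted p = 0.000684), and the CMA-labelled library was the higher in 4 of 4 pairs. Avp was at or near the limit of detection in several libraries, and only replicate 3 held more than 2 CPM of it.

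Interneuron markers were divided. Of 4 named transcripts, Vip (26.4, 14.7, 14.6 and 11.6 CPM against 39.6, 20.6, 30.2 and 31.3 CPM, log2FC -0.93, adjusted p = 0.00699) and Cck (44.9, 329.6, 17.4 and 9.82 CPM against 81.2, 648, 21.1 and 14.9 CPM, log2FC -0.69, adjusted p = 0.0127) were called higher in the CMA-labelled libraries. Both encode peptides listed here for cortical-type interneurons, and a bulk level does not tell which cells made the transcript. Lamp5, a marker of neurogliaform cells that also occurs in other neurons, was called higher in the BLA-labelled libraries (138, 105, 193 and 174 CPM against 78.1, 53.3, 152 and 115 CPM, log2FC 0.67, adjusted p = 0.0107). Pvalb, the calcium buffer parvalbumin of fast-spiking cells, stood at 47.9, 98.7, 51.3 and 29.6 CPM against 60.2, 92.2, 32.9 and 19.2 CPM and was not called (adjusted p = 0.385). The hippocampal list had 2 named transcripts, of which Wfs1, an endoplasmic reticulum protein also found in amygdala and striatum, was called higher in the BLA-labelled libraries (log2FC 0.56, adjusted p = 0.0191) and C1ql3 was not called (log2FC -0.19, adjusted p = 0.409). A further list of peptides and secretory granule proteins, chosen after the values had been seen, had 19 named transcripts, of which 14 passed the low-count filter, 3 were called higher in the BLA-labelled and 5 in the CMA-labelled libraries, and the median was -0.06. Peptides thus split between the labels, with Penk and Gal on the BLA-labelled side and Avp, Vip, Cartpt and Cck on the CMA-labelled side.

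Oligodendrocytes form the myelin sheath, and their transcripts were higher in the BLA-labelled libraries. Of 12 genes listed, 4 had a named transcript, and 3 were called higher there, with a median log2FC of 0.89. Ermn, which encodes the myelin protein ermin, stood at 107, 121, 242 and 158 CPM in the BLA-labelled libraries and 33.6, 42.3, 92.7 and 61.6 CPM in the CMA-labelled libraries (log2FC 1.48, SE 0.12, adjusted p = 5.26e-05), without overlap. Opalin, another myelin membrane protein, measured 99.3, 55.6, 238 and 174 CPM against 50.8, 30.3, 98.1 and 65.9 CPM (log2FC 1.15, SE 0.13, adjusted p = 0.000411). Sox10, the transcription factor that specifies the lineage, measured 24.2, 29.8, 18.7 and 20.8 CPM against 22.3, 21.6, 10.2 and 10.2 CPM (log2FC 0.63, SE 0.17, adjusted p = 0.0424), a call that was lost without replicate 3, without replicate 4 and without replicate 5. Olig2, a factor shared with progenitors, was not called (log2FC 0.47, adjusted p = 0.166).

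A wider list of 27 myelin and oligodendrocyte genes, chosen after the values had been seen, gave 23 calls, each higher in the BLA-labelled libraries, with a median of 0.87. The count was 23 with DESeq2, 14 without replicate 4 and 17 to 22 without any other replicate, 11 with all Sham regions in one fit and 0 without the block. Ugt8, the enzyme that makes the myelin lipid galactocerebroside, stood at 95.2, 79.7, 123 and 85.4 CPM against 39.01, 26.3, 52.3 and 34.8 CPM (log2FC 1.34, SE 0.12, adjusted p = 9.35e-05), again without overlap. The summed level of the 27 transcripts was 2844 to 5055 CPM in the BLA-labelled and 2001 to 3077 CPM in the CMA-labelled libraries. The part of these glial transcripts in the other differences was not tested.

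The listed transcripts of meningeal and fibroblast type were mostly higher in the CMA-labelled libraries. Of 6 genes of the leptomeninges and fibroblasts, also listed after the values had been seen, 5 were called higher in the CMA-labelled libraries, with a median of -1.57. The remaining member, Svep1, lay in the other direction and was not called (log2FC 0.80, SE 0.33, adjusted p = 0.171). Ptgds, the prostaglandin D synthase of the meninges, which oligodendrocytes and choroid plexus also make, stood at 350, 369, 227 and 134 CPM in the BLA-labelled libraries and 2647, 3241, 713 and 812 CPM in the CMA-labelled libraries (log2FC -2.58, SE 0.23, adjusted p = 9.72e-05), without overlap. Aebp1, a protein of the extracellular matrix, measured 3.72, 10.4, 0.689 and 1.52 CPM against 23.3, 64.9, 4.27 and 7.1 CPM (log2FC -2.53, SE 0.17, adjusted p = 1.33e-05), and Ogn, the matrix proteoglycan osteoglycin, measured 14.97, 11.8, 3.004 and 1.57 CPM against 31.2, 25.97, 15.2 and 19.9 CPM (log2FC -2.01, SE 0.36, adjusted p = 0.00636). Igfbp2, a binding protein of insulin-like growth factors, was at 36.3, 67.9, 3.004 and 3.05 CPM against 58.9, 59.6, 9.93 and 17.6 CPM and was called in the main test (log2FC -1.13, adjusted p = 0.0658) but not by DESeq2 (adjusted p = 0.177) nor without replicate 4. The 6 transcripts summed to 151 to 469 CPM in the BLA-labelled and 755 to 3409 CPM in the CMA-labelled libraries, and their part in the other differences was not tested.

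The choroid plexus secretes cerebrospinal fluid and is known for transthyretin. Its transcript Ttr stood at 3917, 14494, 219 and 48.5 CPM in the BLA-labelled libraries and 155, 234, 40.3 and 284 CPM in the CMA-labelled libraries, and was not called (log2FC 3.18, SE 1.254, adjusted p = 0.157). The BLA-labelled library was the higher in 3 of 4 pairs, and replicate 5 went the other way. Kcnj13 (25.1, 17.95, 2.41 and 1.31 CPM against 3.34, 2.66, 3.31 and 9.37 CPM) and Sostdc1 (36.7, 20.5, 1.18 and 0.72 CPM against 1.48, 0.666, 0.712 and 4.12 CPM), also made by the plexus, were not called. Kcnj13 was higher in the BLA-labelled library of replicates 1 and 3 and Sostdc1 in that of replicates 1, 3 and 4, and all 3 transcripts were called without replicate 5. The 3 transcripts summed to 50.6 to 14532 CPM in the BLA-labelled and 44.3 to 297 CPM in the CMA-labelled libraries. Drd2, Adora2a, Scn4b and Penk were higher in the BLA-labelled library of every pair. The part of the plexus transcripts in the other differences was not tested.

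Hemoglobin transcripts were higher in the CMA-labelled libraries. Hbb measured 227, 1148, 80.6 and 73.4 CPM against 373, 2044, 91.7 and 107 CPM (log2FC -0.57, adjusted p = 0.0283) and Hbb-b1 48.4, 111, 28.02 and 8.43 CPM against 86.8, 181, 27.3 and 29.7 CPM (log2FC -0.82, adjusted p = 0.0528), near-identical copies between which reads can be split. Neither call held without replicate 3, nor that of Hbb-b1 without replicate 1. Astrocyte transcripts did not separate the labels, with 0 of 5 called by edgeR and a median of -0.10, and DESeq2 called 0 as well. At an unadjusted p under 0.05, 0 of these 5 passed. Gja1, the gap junction protein connexin 43, stood at 322, 355, 417 and 328 CPM against 283, 327, 508 and 357 CPM. Apoe, the main apolipoprotein of astrocytes, ranged from 189 to 24463 CPM between libraries, far more than between the labels. The microglial transcripts Cx3cr1 (7.39, 5.03, 27.97 and 22.1 CPM against 3.895, 3.33, 38.96 and 28.3 CPM) and C1qa (37.5, 68.2, 18.8 and 17.2 CPM against 64.1, 85.6, 14.2 and 13.2 CPM), a chemokine receptor and a complement subunit, were not called, and no named transcript of progenitors or endothelium was available.

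**Figure D3:**
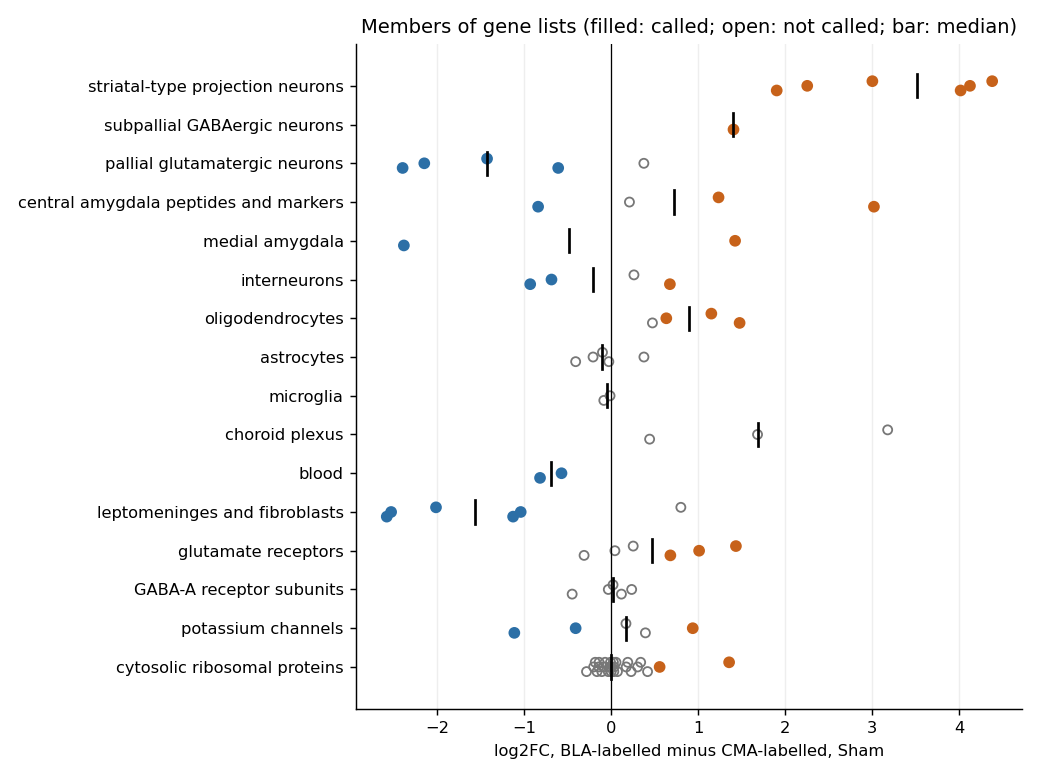
log2FC (BLA-labelled minus CMA-labelled, Sham) of each tested member of 16 gene lists, with called members filled (orange higher in the BLA-labelled, blue in the CMA-labelled libraries), others open and a bar at the median. The striatal-type members lie between 1.9 and 4.38 and 4 of the 5 pallial glutamatergic members between -2.4 and -0.61.

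Receptors for glutamate were shifted in part. Of 6 named subunits and receptors, 3 were called higher in the BLA-labelled libraries, against 8.08% of all named transcripts tested, with a median of 0.47. Grm4, a presynaptic metabotropic receptor, stood at 6.704, 25.1, 1.23 and 3.09 CPM against 2.597, 10.3, 0.569 and 0.816 CPM (log2FC 1.43, SE 0.21, adjusted p = 0.00227). Grm3, the metabotropic receptor of astrocytes and neurons, measured 61.2, 43.8, 103 and 95.2 CPM against 38.8, 27.6, 65.2 and 57.3 CPM (log2FC 0.68, SE 0.11, adjusted p = 0.00365), and Grik3, a kainate receptor subunit named after its value was seen, was called as well (log2FC 1.01, SE 0.26, adjusted p = 0.0361). Among 5 GABA-A receptor subunits, 0 were called by edgeR and by DESeq2, with log2FC from -0.45 to 0.24 about a median of 0.02, and 1 had an unadjusted p under 0.05.

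Of the monoamine and acetylcholine receptors, 4 were named. Besides Drd2, Htr1a, the serotonin 1A receptor, was called, higher in the CMA-labelled libraries at 0.0918, 0.359, 0.345 and 0.593 CPM against 0.433, 4.33, 0.569 and 1.56 CPM (log2FC -1.56, SE 0.41, adjusted p = 0.0416). These levels are close to those of single reads, and the call was absent without replicate 3. Chrm1 (1.29, 58.5, 1.87 and 2.63 CPM against 1.61, 71.9, 1.64 and 3.05 CPM) and Chrnb2 (1.52, 74.7, 2.17 and 3.98 CPM against 1.42, 83.2, 2.46 and 3.44 CPM), a muscarinic and a nicotinic acetylcholine receptor gene, were not called, and replicate 3 held more than 10 times the level of any other library in both groups. Tacr3, the neurokinin 3 receptor and the sole named member of the list of peptide receptors, was called higher in the BLA-labelled libraries at 6.796, 13.3, 10.2 and 7.49 CPM against 2.84, 2.997, 7.83 and 4.69 CPM (log2FC 0.91, adjusted p = 0.0395), a call lost without replicate 3.

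Potassium channel genes were called in both directions, 1 of 5 higher in the BLA-labelled and 2 in the CMA-labelled libraries. Over all named transcripts tested these shares were 8.08% and 8.36%. Kcnab1, a beta subunit of voltage-gated channels, stood at 278, 196, 184 and 157 CPM against 96.8, 70.9, 150.4 and 108 CPM (log2FC 0.94, SE 0.20, adjusted p = 0.0177), without overlap. Kcnk9, a leak channel, was higher in the CMA-labelled libraries at 0.0918, 9.33, 1.67 and 1.48 CPM against 0.433, 25.97, 2.704 and 2.98 CPM (log2FC -1.11, SE 0.24, adjusted p = 0.0186), a call absent without replicate 3, as was that of Kcnj3, a G protein-gated channel (log2FC -0.41, adjusted p = 0.0863). Among 5 guidance and adhesion genes, Sema3e, a secreted semaphorin, was called higher in the BLA-labelled libraries at 6.796, 9.69, 16.9 and 11.3 CPM against 1.79, 4.66, 7.54 and 6.07 CPM (log2FC 1.23, SE 0.20, adjusted p = 0.00379) and Efnb3, a membrane-bound ephrin, in the CMA-labelled libraries (log2FC -0.44, adjusted p = 0.0649), a call lost without replicate 1, 3 or 4. The steroid and nuclear receptor list had 0 of 3 called by edgeR and by DESeq2, and 0 had an unadjusted p under 0.05. Fos, an immediate early gene that follows neuronal activity, measured 11.7, 5.03, 9.504 and 11.7 CPM against 21.02, 12.98, 13.3 and 14.2 CPM and was called higher in the CMA-labelled libraries (log2FC -0.64, adjusted p = 0.0469), but not without replicate 1, 3 or 4.

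Lists of broader cell functions were all chosen after the values had been seen. Over all named transcripts tested, 16.4% were called, 8.08% higher in the BLA-labelled and 8.36% in the CMA-labelled libraries. Of 41 respiratory chain transcripts 2 were called and of 27 cytosolic ribosomal protein transcripts 2, each higher in the BLA-labelled libraries, with medians of 0.02 and 0.00. Both respiratory chain calls, MT-ATP8 (log2FC 0.59) and MT-ND4L (log2FC 0.61), are encoded in the mitochondrial genome. Every listed member of that genome lay on the BLA-labelled side, down to 0.25 for MT-ND6, and the rest of them were not called. Zinc finger genes had 1 call of 31. Sodium and calcium channel genes had 3 of 10 called, Scn4b among them. Of 35 genes of cAMP and calcium signalling, 10 were called higher in the BLA-labelled and 4 in the CMA-labelled libraries, with a median of -0.01. Ppp1r1b and Rasd2 were the members with the smallest p on the BLA-labelled side.

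The other genes with the largest differences belong to no list above. Tnni3, a troponin subunit best known from heart muscle, stood at 10.7, 10.1, 7.58 and 5.08 CPM in the BLA-labelled libraries and 1.11, 0.333, 0.569 and 0.852 CPM in the CMA-labelled libraries (log2FC 3.26, SE 0.27, adjusted p = 7.20e-05). Slc5a7, the choline transporter of cholinergic neurons, measured 34.6, 19.7, 20.3 and 13.04 CPM against 7.05, 3.995, 5.66 and 4.61 CPM (log2FC 1.93, SE 0.17, adjusted p = 0.000112), and neither transcript overlapped between the groups. Crabp1, which binds retinoic acid in the cytosol, measured 25.5, 50.3, 6.204 and 13.8 CPM against 7.295, 14.3, 1.245 and 2.24 CPM (log2FC 2.13, SE 0.18, adjusted p = 8.33e-05) and was higher in the BLA-labelled library of 4 of 4 pairs.

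On the CMA-labelled side, Nupr1, a stress-induced nuclear protein, stood at 15.5, 7.54, 9.602 and 8.76 CPM against 52.3, 24.97, 38.3 and 42.2 CPM (log2FC -1.97, SE 0.14, adjusted p = 2.51e-05). Ppp1r17, an inhibitor of protein phosphatases, measured 1.01, 1.08, 1.33 and 1.19 CPM against 3.65, 3.33, 9.18 and 6.39 CPM (log2FC -2.34, SE 0.24, adjusted p = 0.000257). Both were without overlap. Syt17, a member of the synaptotagmin family of membrane traffic proteins, measured 52.3, 35.5, 83.9 and 59.95 CPM against 121, 81.6, 248 and 192 CPM (log2FC -1.43, SE 0.13, adjusted p = 0.000114) and overlapped through the lower level of replicate 3.

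The Sham libraries of all regions with at least 1000000 counts were then scaled together, to place both labels among the 25 regions. The mean level of Drd2 in the BLA-labelled libraries, 58.5 ± 16 CPM (SD, n = 4), ranked 3 of 25, after NAcC (65.6 ± 26) and NAcSh (61.1 ± 19), the core and shell of the nucleus accumbens, from which it did not differ beyond these spreads. The next level was that of LS (27.2 ± 9), the lateral septum. In the CMA-labelled libraries Drd2 ranked 19 of 25, at 3.54 ± 1.5 CPM. Penk was the highest of all regions in the BLA-labelled libraries, with 1655 ± 651 CPM, ahead of NAcC (1025 ± 530.4), and ranked 11 in the CMA-labelled libraries, with 194 ± 46 CPM. The spreads of the BLA-labelled libraries and NAcC overlapped. Gad2 ranked 4 and 12.

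Slc17a6 ranked 14 of 25 in the CMA-labelled libraries (66.0 ± 29 CPM) and 23 in the BLA-labelled libraries (14.7 ± 6.4 CPM), while MDT, the mediodorsal thalamus, held the most (435 ± 133 CPM). The cortical regions PLC, InsularC, ILC and CGC held 12.99 to 20.02 CPM of Slc17a6, near the level of the BLA-labelled libraries and below that of the CMA-labelled libraries. Slc30a3 ranked 2 in the CMA-labelled libraries, after the dorsal dentate gyrus, with wide spreads between replicates (141 ± 122 and 179 ± 119 CPM), and 9 in the BLA-labelled libraries. The CMA-labelled mean rests mostly on replicates 1 and 3 (187 and 291 CPM, against 27.1 and 56.9 CPM in replicates 4 and 5). In replicate 4 the CMA-labelled library lay below several regions, the ventral dentate gyrus (39.1 CPM) and InsularC (35.2 CPM) among them. Neurod1 ranked 7 and 16. Slc17a6 and Neurod1 were thus higher in several regions outside the pallium, whereas the levels of Drd2, Adora2a and Ppp1r1b in the BLA-labelled libraries were next to those of the nucleus accumbens. Ptgds was the lowest of 25 regions in the BLA-labelled libraries.

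**Figure D4:**
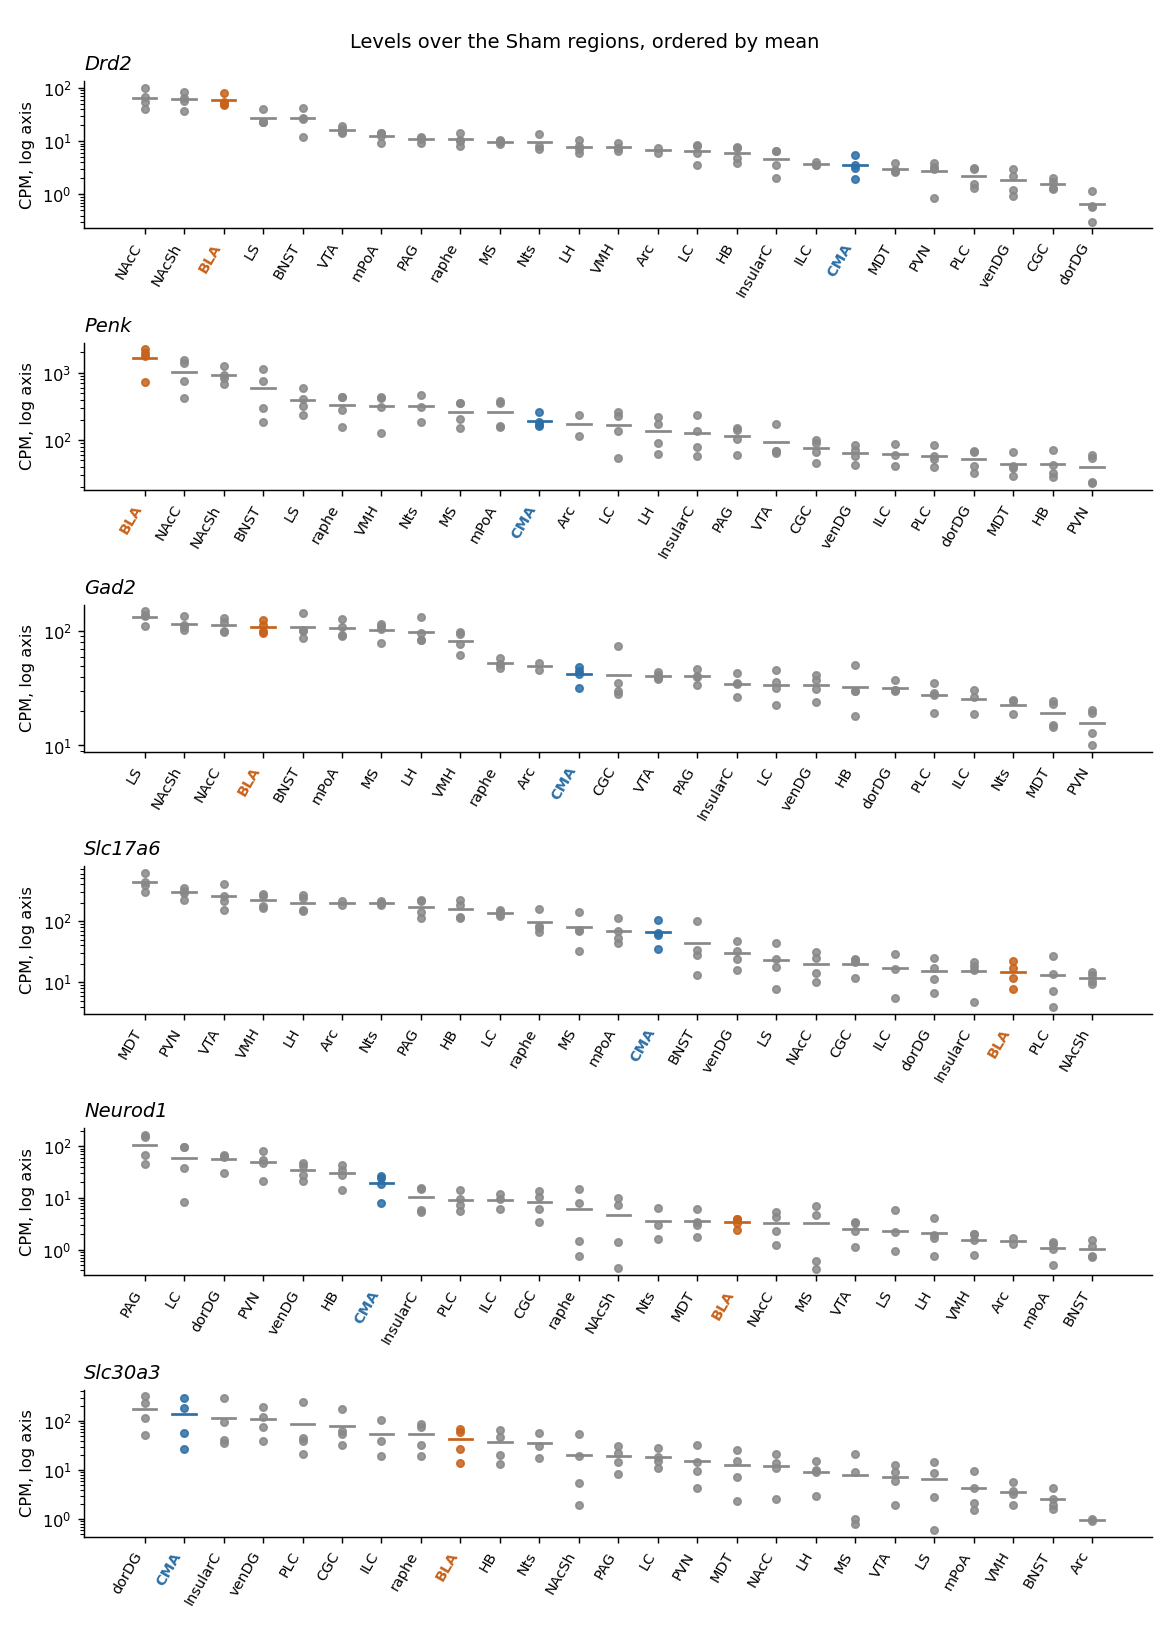
CPM (log axes) of 6 transcripts in the Sham libraries of 25 regions, ordered by the mean, with a point for each library and a bar at the mean. The BLA-labelled libraries (orange) rank 3 for Drd2, 1 for Penk and 23 for Slc17a6, and the CMA-labelled libraries (blue) rank 19, 11 and 14.

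Each library was also compared as a whole with the mean profile of the Sham regions other than BLA and CMA, by Pearson's r of log2 CPM over 17029 transcripts, a description without a test. NAcSh or NAcC was the most alike for 4 of 4 BLA-labelled libraries (r from 0.926 to 0.967) and for 0 of 4 CMA-labelled libraries, for which it was the ventral dentate gyrus in replicates 1 and 3 and the insular cortex in replicates 4 and 5 (r from 0.914 to 0.965). With the other of the 2 labels among the candidates, an alternative added after seeing the data, CMA came first for the BLA-labelled library of replicate 1 (r = 0.972) and BLA for the CMA-labelled library of replicate 5 (r = 0.967), and NAcSh or NAcC remained first for 3 of 4 BLA-labelled libraries. Over the 5838 most abundant transcripts, without that candidate, NAcSh or NAcC was the most alike for 2 of the 4 BLA-labelled libraries, and the first region of the CMA-labelled libraries became CGC in replicate 4 and Arc in replicate 5. The Arc mean held 2 libraries, those of replicates 4 and 5. Its r with the CMA-labelled library was 0.902 in replicate 5 and 0.555 in replicate 3. Within replicate 5 alone, r was 0.905 for Arc and 0.966 for the ventral dentate gyrus. The part of the unequal replicate sets was not tested. Within the same replicate number, the order depended on the replicate, and the ventral dentate gyrus came first for 4 of 4 CMA-labelled and 2 of 4 BLA-labelled libraries (1 of 4 over the most abundant transcripts). The BLA-labelled and CMA-labelled libraries of one number were more alike to each other than to any other region of that number for 4 of 4 CMA-labelled and 3 of 4 BLA-labelled libraries. Over the most abundant transcripts, the other label ranked 2 and 3 for the BLA-labelled libraries of replicates 3 and 5. It ranked 2 for the CMA-labelled library of replicate 5, and first for the remaining libraries. All these r lie close together.

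The same contrast was then made in the FT libraries, which come from other animals and share no library with the Sham contrast. Per the methods, matching Sham and FT samples of a replicate number were handled side by side, so the FT contrast is not a fully independent repeat. Of 13209 transcripts tested, 466 (3.53%) were called higher in the BLA-labelled and 361 (2.73%) in the CMA-labelled FT libraries, or 6.26% in all. Of the 1738 Sham calls tested in FT, 1667 (95.9%) had the same sign in FT, against 73.2% of all 13054 transcripts tested in both. The transcripts called in both were 588, each with the same sign in both, which is 33.8% of the Sham calls and 71.8% of the FT calls tested in the other set. Across transcripts, which are not independent replicates, r of the log2FC was 0.716.

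Striatal-type and most glutamatergic transcripts differed in the same directions between the FT libraries. Drd2 stood at 101, 81.8, 53.2 and 42.8 CPM in the BLA-labelled and 10.7, 8.53, 2.45 and 1.896 CPM in the CMA-labelled FT libraries (log2FC 3.86, adjusted p = 0.000515). Penk measured 2286, 3013, 828 and 746 CPM in the BLA-labelled and 332, 350.4, 104 and 94.4 CPM in the CMA-labelled FT libraries (log2FC 2.96, adjusted p = 9.97e-05), and the striatal-type list was called in 6 of 6 members with a median of 3.60. On the other side, Slc30a3 measured 93.99, 143, 17.9 and 32.9 CPM in the BLA-labelled and 245, 421, 42.2 and 54.2 CPM in the CMA-labelled FT libraries (log2FC -1.23, adjusted p = 0.00728), and Slc17a6 measured 19.96, 6.07, 18.1 and 13.8 CPM in the BLA-labelled and 23.3, 17.1, 77.6 and 87.3 CPM in the CMA-labelled FT libraries (log2FC -1.66, adjusted p = 0.0553). The CMA-labelled library was the higher in 4 of 4 FT pairs for both. Of the 5 named glutamatergic transcripts, 3 were called in FT, each higher in the CMA-labelled libraries. Nrgn (log2FC -0.28, adjusted p = 0.344) and Camk2a (log2FC -0.11, adjusted p = 0.718) were not called. Of the 4 named transcripts of the central amygdala list, Penk alone was called in FT (median log2FC 0.16), with Sst at -0.36 and Cartpt at -0.19. Avp was called higher in the CMA-labelled FT libraries (log2FC -3.97, adjusted p = 0.0040). Of the wider myelin list, 20 of 27 were called in FT, each higher in the BLA-labelled libraries.

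The choroid plexus transcripts were called in FT. Ttr stood at 4866, 13203, 499 and 1103 CPM in the BLA-labelled and 69.5, 102, 8.59 and 8.303 CPM in the CMA-labelled FT libraries (log2FC 6.51, adjusted p = 9.97e-05), so that 4 of 4 pairs had the BLA-labelled library higher. A test of the difference of the contrast between FT and Sham called 0 of 14497 transcripts by edgeR (smallest adjusted p = 0.143), with 753 (5.19%) at an unadjusted p under 0.05, and DESeq2 called 11. For Ttr this difference was 3.35 on the log2 scale (unadjusted p = 0.0254, adjusted p = 0.924). Nupr1 had a log2FC of -1.97 in Sham and -0.64 in FT, a difference of 1.33 with an adjusted p of 0.305, and thus did not pass.

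**Figure D5:**
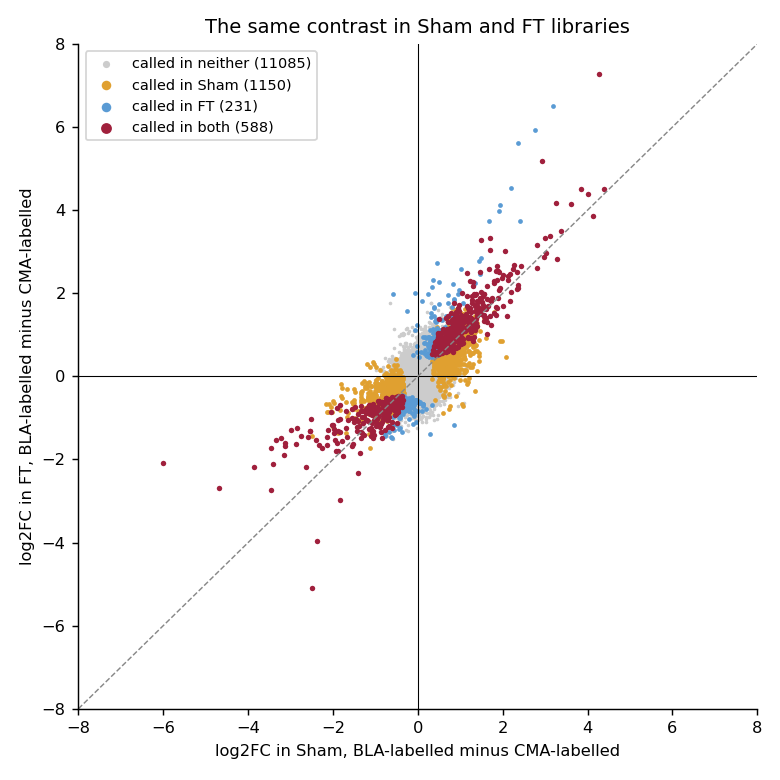
log2FC (BLA-labelled minus CMA-labelled) in FT against that in Sham for 13054 transcripts tested in both, colored by where they were called, with a dashed line of equality. The 588 transcripts called in both lie in the lower left and upper right quadrants, and a few called in FT alone lie above the line, Ttr the highest of them.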

How the data were processed

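The authors made the deposited files by STAR alignment of 76 bp paired-end reads of a stranded total RNA kit to rn5 and counting with HTSeq, and the files hold raw counts per Ensembl transcript, with no normalization. Here the 5 summary lines at the end of each file were dropped. They held 25.6% to 45.2% of reads outside features and 3.22% to 7.28% of reads ambiguous between features, which were not counted. Gene names came from a supplementary table of the study that names 1844 of the 29188 transcripts, each picked there for a response to fluoxetine in these libraries, and were written in RefSeq spelling. A value belongs to 1 transcript and may miss reads shared with other transcripts of the gene.

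The 8 Sham libraries entered a fit of their own in edgeR 4.0.16 (R 4.3.3). Low transcripts were removed by filterByExpr (minimum count 10, minimum total 15), libraries were scaled by TMM, and the model held the region label and the replicate number as a block, as in the methods of the study, for the quasi-likelihood test. The SE is the absolute log2FC over the square root of F. The 8 FT libraries were fitted likewise, and a fit of both gave the difference of the contrast. The methods treat replicate numbers as batches. They describe 4 replicates pooled from the 40 animals of a treatment, with libraries of the regions made in every replicate. They do not state that the BLA and CMA samples of one number share animals or were processed together. The pairing thus rests on the replicate numbers and on the values. Deviations of BLA-labelled and CMA-labelled libraries of the same number from their group means correlated at 0.813 to 0.911 in Sham. Those of different numbers ran from -0.749 to 0.640. The highest of these were between replicates 4 and 5 (0.640 and 0.465), so these blocks are less distinct from each other. The direction within a pair used log2(CPM + 0.5). Alternatives were DESeq2 1.42.0 with the same block, median-ratio factors, no low-count filter, a stricter adjusted p, the 50 most abundant transcripts left out, no block, each replicate left out and all Sham regions in one fit. The edgeR and DESeq2 steps were tested on simulated data.

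Named genes were the 10 largest called differences in each direction with the same sign in 4 of 4 pairs and at least 5 CPM in the higher group, the defining markers of both regions, and up to 4 members of each list, the called ones of smallest p in each direction and otherwise those with most counts. The members, the 23 lists written first and the rule were chosen with earlier results of these data known, and 8 further lists after the values had been seen. Lists were described by counts and medians alone.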

Additional observations from a re-analysis of the deposited data

Results flagged for a closer look

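Of 120 groups of 4 libraries examined for transcripts given above, 16 held a library that stood apart from the other 3 by Dixon's rule, where chance gives about 1 in 20. Replicate 3 was that library in 14 of the 16. In the BLA-labelled group it stood apart for Avp (10.4 CPM), Cartpt (66.1 CPM), Cck (330 CPM), Hbb (1147.8 CPM), Apoe (13597.8 CPM), Chrm1 (58.5 CPM) and Chrnb2 (74.7 CPM). In the CMA-labelled group it did so for Avp (49.3 CPM), Kcnk9 (25.97 CPM), Cck (648 CPM), Hbb (2044.3 CPM), Apoe (24463 CPM), Chrm1 (71.9 CPM) and Chrnb2 (83.2 CPM). In each of these it was the highest library. These are the libraries with the fewest counts and the largest share of counts in their 50 most abundant transcripts, whose part in these levels was not tested.

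The remaining groups were Fos in the CMA-labelled libraries, where replicate 1 was the highest at 21.0 CPM, and Kcnj13 in the CMA-labelled libraries, where replicate 5 was the highest at 9.37 CPM. In replicate 5 the CMA-labelled library also held more Ttr and Sostdc1 than the BLA-labelled library.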

How the results depend on the processing

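The direction of each list median beyond the spread of its pairs was the same under every alternative in which it was tested. So was that of each called gene named by the rule. Among all list medians compared, 1 moved without the replicate block and 20 stayed the same. The Sham count of 1808 calls was 17 with no replicate block, 1170 at an adjusted p of at most 0.05 and 581 with all Sham regions in one fit, and ranged from 857 (without replicate 4) to 1748 with a replicate left out. DESeq2, median-ratio factors, no low-count filter and leaving out the 50 most abundant transcripts gave 1676 to 2436, and 1507 of the 1808 calls were kept by DESeq2. The FT count of 827 was 7 without the block, 460 at the stricter adjusted p, 1463 with DESeq2 and 1601 with no low-count filter, and ranged from 318 to 927 with a replicate left out, with 364 without replicate 5 and 318 without replicate 3. The count of 0 for the difference between FT and Sham was 11 with DESeq2, 91 with no low-count filter and 0 to 1 with a replicate left out. The number of BLA-labelled libraries most alike to NAcSh or NAcC went from 4 to 2 over the most abundant transcripts, and to 3 with the CMA profile among the candidates. Of the 47 called genes given with values under the naming rule, 46 were also called by DESeq2, 28 with all Sham regions in one fit and 5 without the block. The genes under other observations, outside that rule, are not in this count. The cause of these changes was not tested. Scaling moved the median of all transcripts by less than 0.1 on the log2 scale. Counting error limits transcripts of a few CPM, most of all in replicate 3, and the libraries are pools of animals.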

Other observations

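Some called genes outside the rule, named here after their values were seen, add to the description. Higher in the BLA-labelled libraries were Zfhx4, a zinc finger and homeobox transcription factor (log2FC 1.90, adjusted p = 1.33e-05), Hpca, the calcium sensor hippocalcin (log2FC 1.39, adjusted p = 9.19e-05), Nmb, the precursor of neuromedin B (log2FC 1.39, adjusted p = 0.00404), and Rasgrp1, an exchange factor of Ras (log2FC 1.29, adjusted p = 0.00395). Higher in the CMA-labelled libraries were Igfbp5, a binding protein of insulin-like growth factors (log2FC -1.07, adjusted p = 0.000629), Hspb1, a small heat shock protein (log2FC -1.19, adjusted p = 0.00351), and the presynaptic genes Sncg (log2FC -1.05, adjusted p = 0.0122), Nptxr (log2FC -0.79, adjusted p = 0.00365), Syp (log2FC -0.73, adjusted p = 0.0142) and Sncb (log2FC -0.67, adjusted p = 0.0283). These p-values are from edgeR over all transcripts tested.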
